A study of Homo sapiens with 12 samples.

Results

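Heat shock proteins and DNAJ cochaperones were followed in U2OS cells, a human osteosarcoma line, given 2 compounds alone or together. The set was defined by gene symbol: HSPA, HSPB, HSP90, HSPD, HSPE or HSPH followed by letters or digits, or DNAJA, DNAJB or DNAJC followed by digits. Of 58735 genes in the raw table, 100 had such a symbol. Symbols ending in P or P plus a number, by which the rule recognised pseudogenes, took out 28. That step also took out the protein-coding HSPBP1 and HSPBAP1, which are counted below among the cochaperones. DNAJB3, which the annotation calls a pseudogene, was left out, and so were 9 genes with fewer than 120 counts summed over the 12 libraries. DNAJC28, with 132 counts, was just inside that limit and DNAJB13, with 104, just outside. The 62 members carry 61 symbols, because HSPA14 is listed under 2 overlapping Ensembl identifiers. All 62 passed the filter on low counts.

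Each group held 3 libraries, and all cells were harvested after 24 h. The groups were DMSO (the solvent), 10 µM TH10785, 10 µM PNKP1i, and both compounds at 10 µM each. TH10785 is a small molecule that activates OGG1, the glycosylase that removes oxidised guanine from DNA; the series record spells it TH10587. PNKP1i is known here only by that name. No genotype differs between the groups, and every library comes from the 1 line. The labels do not say that replicates were separate cultures, so the p-values below speak for the variation among these libraries alone, and that variation may be technical.

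Heat shock proteins are chaperones that bind unfolded or partly folded proteins and keep them from aggregating. HSP70 proteins bind and release their clients in a cycle driven by ATP. DNAJ proteins (HSP40) deliver clients and start the hydrolysis step, HSP110 proteins exchange the nucleotide, HSP90 acts late on kinases and receptors, and small HSPs hold clients without ATP. The cytosol, the endoplasmic reticulum (ER) and the mitochondrion each have their own HSP70 machine, and the cytosolic and ER machines answer to transcription factors of their own: HSF1 for the cytosol, ATF6 and XBP1 for the ER. Members were therefore sorted by compartment from textbook knowledge: 33 in the cytosol or nucleus, 13 in the ER, 8 in the mitochondrion, and 8 elsewhere or uncertain.

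The sites that the cytosolic and ER signals act through can be read in promoter sequence. The window from 250 bases before to 50 bases after each gene's start in RefSeq (GRCh38.p14) was searched for 54 of the 61 symbols, counting a gene with several windows once. The heat shock element was taken as 3 blocks, GAA, TTC and GAA or TTC, GAA and TTC, with any 2 bases between neighbours. The ER stress element was taken as CCAAT, any 9 bases and CCACG. Both strands were searched, and no heat shock element overlapped an ER stress element. A heat shock element was found for DNAJA1, DNAJB6, HSP90AA1, HSP90AB1, HSPA6, HSPA8 and HSPD1, which makes 7 of 54 members, against 0.608% of all 27305 genes with a window. Of these 7, 6 are cytosolic and 1 is mitochondrial, and none of the 12 ER members with a window has one. The ER stress element was found for HSPA5 and HSP90B1, 2 of those 12, against 0.0916% of all genes. The ATF4 composite element (TGATG, any base, then AA) was in the window of DNAJA4 alone, against 4.46% of all genes. DNAJC1, HSPB11, DNAJC24, HSPA12B, HSPB2, HSPA14 and DNAJC22 were not matched to a window. A match is a description of the letters, not evidence of a working site.

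The stretches below carry some of these matches in capitals, 5′ to 3′ on the gene's strand. They are shown because HSP90AA1 rose while HSP90AB1 did not pass the test although both carry the same element, and because HSPA5 and HSP90B1 are the ER members with the other element.
HSP90AA1, chr14:102087112-102087140, minus strand: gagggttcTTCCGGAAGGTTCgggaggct
HSP90AB1, chr6:44247770-44247798, plus strand: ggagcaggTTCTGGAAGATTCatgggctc
HSP90AB1, chr6:44247823-44247851, plus strand: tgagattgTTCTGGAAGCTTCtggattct
HSPA8, chr11:123062171-123062199, minus strand: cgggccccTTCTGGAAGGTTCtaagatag
HSPA6, chr1:161524458-161524486, plus strand: cggaaaggTTCGCGAAAGTTCgcggcggc
HSPA5, chr9:125241383-125241417, minus strand: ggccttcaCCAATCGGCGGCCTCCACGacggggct
HSP90B1, chr12:103930208-103930242, plus strand: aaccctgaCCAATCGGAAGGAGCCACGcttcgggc
The match starts 88 bases before the start of HSP90AA1, 165 and 112 bases before that of HSP90AB1, and 66 bases before that of HSPA5. A further match, not shown, starts 230 bases before the start of HSPA8 and 89 bases before that of HSP90B1. HSPD1, also not shown, has overlapping matches that start 245 and 240 bases before its start. More than 1 match is thus not particular to HSP90AB1.

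Depth ran from 16225339 to 21546369 counts per library. The osteoblast-lineage and mesenchymal genes VIM, COL1A1 and SPARC were high in every library (VIM from 684 to 1125 CPM), COL1A2 was at most 0.538 CPM, and the osteoblast factor RUNX2 ran from 14.9 to 30.9 CPM. The epithelial genes EPCAM and CDH1 were at most 4.03 and 2.71 CPM, the endothelial PECAM1 at most 1.66, the leukocyte PTPRC 0.366, TERT 0.321 and the hepatocyte ALB 0.061 CPM. All 4 of VIM, COL1A1, SPARC and RUNX2 were lower in every library given both compounds than in the other 9. VIM ran from 885 to 1125 CPM in those 9 and from 684 to 722 with both, COL1A1 from 1294 to 1799 and from 573 to 793, SPARC from 1639 to 1934 and from 760.3 to 1123, and RUNX2 from 20.4 to 30.9 and from 14.9 to 18.6 CPM. Their part in the results below was not tested. These are bulk levels, in which fewer cells with a transcript and less of it per cell cannot be told apart. TH10785 replicate 3 stands apart: it was below both other TH10785 libraries in 37 of the 62 members and below all 3 DMSO libraries in 32. These counts were not made over all genes, so they do not separate a trait of the members from one of the whole library. Its median log2 difference from the DMSO mean was -0.13 over the members and -0.04 over all genes tested.

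Levels are given as CPM, read counts brought to a common library size with TMM factors, and a member was called when edgeR's quasi-likelihood test, with Benjamini-Hochberg adjustment over all 17290 genes tested, gave an adjusted p under 0.05. In DMSO the members spanned a wide range of levels per kb of the longest transcript of each gene. HSP90AB1, the constitutive HSP90, stood highest at 1230 CPM per kb, followed by HSPB1 (HSP27, a small HSP) at 989 and HSPA8 (HSC70, the constitutive HSP70) at 684. HSPD1 (mitochondrial HSP60) and HSPA5 (BiP, the ER HSP70) lay next, both at 159 CPM per kb. HSP90AA1, the stress-inducible HSP90, was at 81.3 CPM per kb in DMSO.

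Neither compound alone moved a member past the threshold. With TH10785, 0 of 62 were called by edgeR, against 0.561% of all genes tested (0.515% higher, 0.0463% lower), and 5 (8.06%) had an unadjusted p under 0.05, against 14.1% of all genes. With PNKP1i, 0 of 62 were called, against 0.197% of all genes (0.174% higher, 0.0231% lower), and 9 (14.5%) had an unadjusted p under 0.05, against 11.3% of all genes. DESeq2 called 0 members with TH10785 (against 1.82% of all genes) and 1, DNAJB11, with PNKP1i (1.61%, against 0.671% of all genes). Both limma-voom and limma-trend called 0 with either compound.

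Of the 13 ER members, 0 were called with PNKP1i by edgeR and 3 had an unadjusted p under 0.05. DNAJB11 and HSPA5 are given here because their calls changed with the fit. DNAJB11 (ERdj3, the soluble ER cochaperone of BiP) was at 39.6, 42.9 and 44.3 CPM in DMSO and 22.1, 30.6 and 23.4 CPM with PNKP1i. Every PNKP1i library lay below every DMSO library (log2 fold change -0.74, SE 0.16, adjusted p = 0.0925). HSPA5 was at 598, 618 and 643 CPM in DMSO and 469, 467 and 464 CPM with PNKP1i. These groups did not overlap either, and the PNKP1i libraries were within 5 CPM of each other (log2 fold change -0.41, SE 0.15, adjusted p = 0.357). A fit of the 6 libraries compared, whose spread does not include TH10785 replicate 3, called 7 members with PNKP1i (11.3%, against 7.07% of all genes in that fit): HSPA5, HSP90B1, HSPA4, HSPH1, DNAJB11 and DNAJC13 lower, and DNAJA3 higher. Leaving out TH10785 replicate 3 from the 12-library fit called 3 of them (4.84% of members, against 1.69% of all genes), HSPH1, DNAJB11 and DNAJC13 (adjusted p = 0.0366, 0.00315 and 0.0365), all lower. Without DMSO replicate 1, DNAJC8 and DNAJC19 were called higher with TH10785 (adjusted p = 0.0473 and 0.0403). They made 3.23% of members, against 0.67% of all genes called in that fit. That DMSO library was the highest of its group for both.

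With both compounds the chaperone genes separated. Of 62 members, 36 were called against DMSO, 24 higher and 12 lower, which is 58.1% against 41.0% of all genes tested. Among all genes 21.3% were called higher and 19.7% lower. The count rested in part on single libraries, and the share of all genes called moved with it. Without DMSO replicate 2 it was 20 (32.3%, against 28.9% of all genes). Without DMSO replicate 3 it was 22 (35.5%, against 32.1%). It was 23 without replicate 3 of the cells given both (37.1%, against 31.9%), and 47 without TH10785 replicate 3 (75.8%, against 47.6%). The rises numbered 15 without DMSO replicate 2. The falls numbered 4 to 7 without any 1 of the DMSO libraries, PNKP1i replicate 1, or replicate 1 or 3 of the cells given both. The median log2 fold change of the members was 0.29, against 0.04 over all genes. By compartment, 13 rose and 6 fell of 33 in the cytosol and nucleus (median 0.27), 7 rose and 1 fell of 13 in the ER (median 0.45), and 4 rose and 2 fell of 8 in the mitochondrion (median 0.36). Of the 8 elsewhere, 0 rose and 3 fell (median -0.12). The summed share of all raw counts held by the members was 1.02% to 1.06% in DMSO and 1.24% to 1.29% with both compounds. The ranges do not overlap. On the TMM scale the rise was smaller in proportion, from 10507 to 10774 CPM in DMSO to 10987 to 11471 CPM with both, again without overlap. The sum of the mitochondrial members was 806 ± 25.7 CPM in DMSO and 1078 ± 49.8 CPM with both (SD, n = 3), while the cytosolic sum was 8356 ± 147 and 8525 ± 354 CPM. The ER sum was 1169 ± 55.5 CPM in DMSO and 1454 ± 275 CPM with both. Replicates 1, 2 and 3 of the cells given both had ER sums of 1764, 1243 and 1354 CPM.

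The direction of the members moved with the base composition of their transcripts. The median GC content was 43.2% among risers, 56.2% among fallers and 46.2% over the 62. Across the 62 members the Pearson correlation between GC content and the log2 fold change was -0.65, and across 17282 genes it was -0.44; both are descriptions over genes that share the same libraries. With offsets for GC content and length fitted in each library, 19 members were called, 14 higher and 5 lower (30.6%, against 34.0% of all genes with the same offsets). Of the 24 rises 11 were kept (HSP90AA1, HSPA1A, HSPA1B, HSPA8, HSPA9, HSPE1, HSPA13, DNAJC10, DNAJC25, DNAJC2 and DNAJA4), and of the 12 falls 4 (HSPB1, HSPB2, DNAJC22 and DNAJC28). HSPA6, DNAJB6 and DNAJA3 were newly called higher and DNAJB11 lower. The share of the members called thus lay above the background in the main fit without offsets and just below it with them. It was also just below it when a fold change over 1.2 was tested without offsets (27.4%, against 28.6% of all genes).

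**Figure D1:**
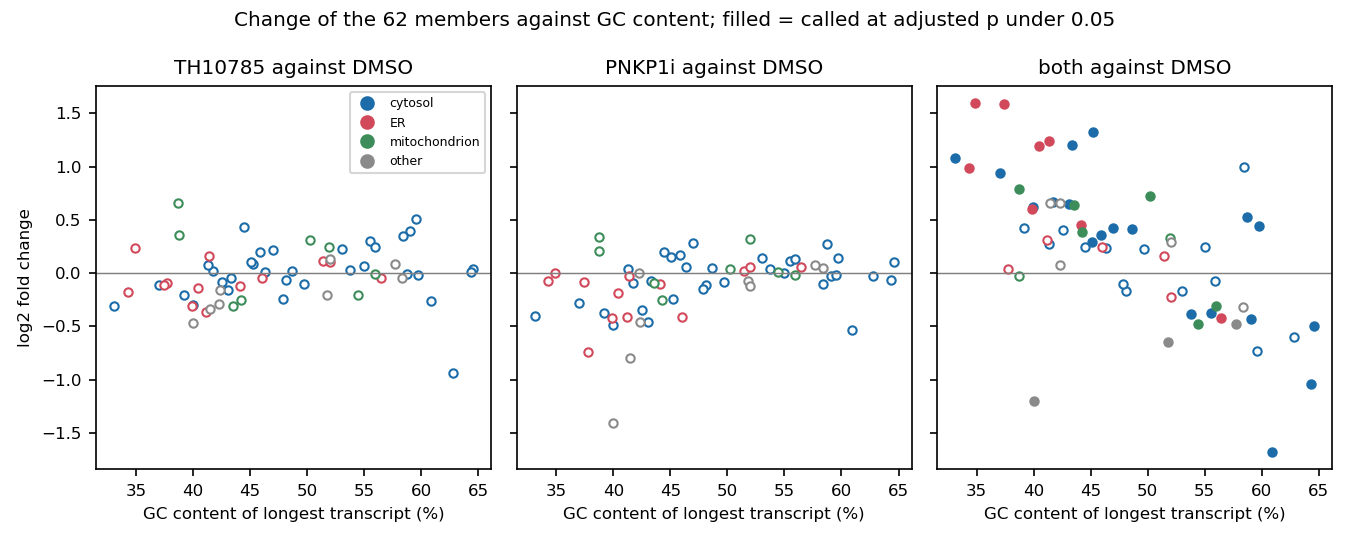
Log2 fold change (vertical axis) of each of the 62 members against the GC content of its longest transcript in percent (horizontal axis), in 3 panels for TH10785, PNKP1i and both compounds, each against DMSO; colours give the compartment and filled points were called. With both compounds the points slope down (Pearson r = -0.65), while they lie within a narrower range with either compound alone, where no point is filled.

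Among the HSP90 genes, 1 of 3 rose. HSP90AA1 (chr14:102080738-102139699, GRCh38) was at 295, 275 and 287 CPM in DMSO, 395, 369 and 143 after TH10785, 216, 267 and 242 after PNKP1i and 678, 663 and 809 with both. The 3 libraries with both compounds lay above the other 9, and TH10785 replicate 3 was the lowest of all. The rise over DMSO was 2.51-fold (log2 fold change 1.33, SE 0.25, adjusted p = 0.000607), and the call held in all 24 alternative settings, with a log2 fold change of 1.19 under the GC and length offsets. Its partner HSP90AB1, which carries the heat shock element 2 times in its window, was at 3248, 3344 and 3277 CPM in DMSO and 2857, 3111 and 2807 CPM with both and was not called (log2 fold change -0.17, SE 0.12, adjusted p = 0.284), although each library with both compounds lay below each DMSO library. HSP90AA1 counts per 100 HSP90AB1 counts were 9.07, 8.22 and 8.76 in DMSO, 12.4, 11.9 and 4.55 after TH10785, 6.69, 9.62 and 7.65 after PNKP1i and 23.7, 21.3 and 28.8 with both. The inducible form thus went from 8.68 ± 0.429 to 24.6 ± 3.83 per 100 of the constitutive form (SD, n = 3), with no overlap. HSP90B1 (GRP94, the ER HSP90) was at 192, 215 and 221 CPM in DMSO and 289, 218 and 272 CPM with both, the groups overlapped, and it was not called (log2 fold change 0.31, SE 0.19, adjusted p = 0.207).

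**Figure D2:**
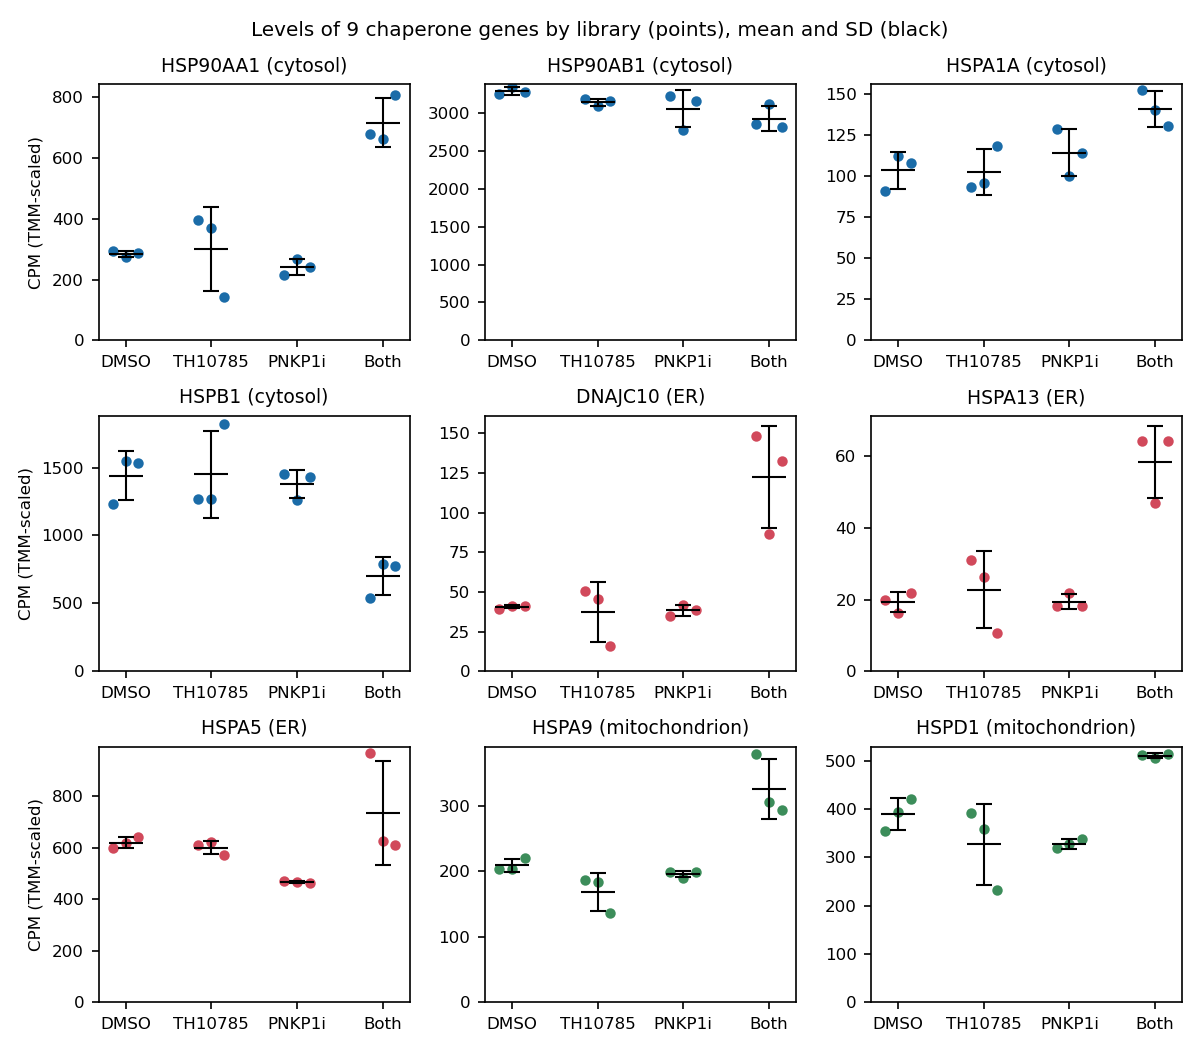
CPM (vertical axes, each from 0) of 9 chaperone genes in the 12 libraries by group (horizontal axes); points are libraries and black marks the mean and SD of 3. HSP90AA1 sits at 663 to 809 CPM with both compounds and at 143 to 395 in the other 9 libraries, while HSPB1 sits at 540 to 791 with both and at 1232 to 1819 elsewhere.

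Cytosolic HSP70 genes that rose did so by less than HSP90AA1. HSPA1B, a stress-inducible HSP70, was at 43.97, 47.3 and 49.2 CPM in DMSO and 71.6, 67.4 and 63.1 CPM with both (1.44-fold, log2 fold change 0.52, SE 0.12, adjusted p = 0.00242), and the call held in all 24 settings. Its near-identical copy HSPA1A was at 90.5, 112 and 108 CPM in DMSO and 152, 139.9 and 130.4 CPM with both (log2 fold change 0.45, SE 0.13, adjusted p = 0.01197); without DMSO replicate 1 the adjusted p was 0.0642. The 2 genes lie 9788 bases apart on chromosome 6. Reads that fit both may be lost or misassigned, so each value is uncertain on its own and the sum of the 2 may be incomplete. Their sum was 134, 159 and 157 CPM in DMSO, 134, 141 and 171 after TH10785, 187, 152 and 173 after PNKP1i and 224, 207 and 194 with both. The libraries with both compounds were the highest 3 of the 12. With the GC and length offsets both rises over DMSO were larger, at 0.74 for HSPA1A and 0.80 for HSPA1B on the log2 scale.

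HSPA8 was at 1878, 1669 and 1504 CPM in DMSO and 2297, 2369.8 and 2091 CPM with both (1.34-fold, log2 fold change 0.42, SE 0.13, adjusted p = 0.0136). This gene has many processed copies in the genome, so part of its reads may be lost or shared. Its call was lost without DMSO replicate 2 or DMSO replicate 3 (adjusted p = 0.0537 and 0.0672). HSPA1A and HSPA1B together made 9.05 ± 1.698 counts per 100 HSPA8 counts in DMSO and 9.25 ± 0.502 with both (SD, n = 3), a difference within the DMSO spread. HSPA6, an HSP70 that is nearly silent without stress, was at 0.299, 1.34 and 1.07 CPM in DMSO and 2.61, 1.11 and 1.72 CPM with both. The groups overlapped and it was not called (log2 fold change 0.997, SE 0.42, adjusted p = 0.0691), though with the offsets it was (adjusted p = 0.0236). HSPA14, whose protein works at the ribosome, rose under both identifiers. ENSG00000187522 had a log2 fold change of 0.65 (adjusted p = 0.0379) and ENSG00000284024 of 0.29 (adjusted p = 0.0476). The 2 features overlap on chromosome 10, and their calls held in 7 and 2 of the 12 fits that left out 1 library (adjusted p up to 0.128 and 0.147). HSPA12B, a divergent HSP70, fell (log2 fold change -0.50, SE 0.19, adjusted p = 0.0449), a call that held in 3 of those 12 fits (adjusted p up to 0.163) and not with the offsets (0.827).

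Of the HSP110 exchange factors, HSPH1 was at 63.7, 68.2 and 79.9 CPM in DMSO, 47.2, 53.2 and 51.2 after PNKP1i and 114, 92.8 and 118 with both. It was lowest with PNKP1i apart from TH10785 replicate 3 and highest with both, where it rose 1.54-fold over DMSO (log2 fold change 0.62, SE 0.21, adjusted p = 0.0253). The offsets ended that call (log2 fold change 0.12, adjusted p = 0.424), as did leaving out DMSO replicate 1 or 2 or replicate 1 or 3 of the cells given both (adjusted p = 0.0909, 0.0787, 0.0665 and 0.0799). HSPA4, the other exchange factor, was at 144, 147 and 161 CPM in DMSO and 206, 190.5 and 202 CPM with both and was not called (log2 fold change 0.40, SE 0.18, adjusted p = 0.0759).

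Of the 6 small HSPs 0 rose and 3 fell (50%, against 41.0% of all genes called in either direction). HSPB1 (chr7:76302544-76304295), the most abundant of them, was at 1232, 1549 and 1536 CPM in DMSO, 1267, 1266 and 1819 after TH10785, 1449, 1262 and 1431 after PNKP1i and 539.6, 791 and 774 with both. All 3 libraries with both compounds lay below the other 9, and the level was 2.05-fold lower than in DMSO (log2 fold change -1.04, SE 0.17, adjusted p = 0.000264). That call held in all 24 settings, with a log2 fold change of -0.72 under the offsets. HSPB2, a small HSP of muscle, was at 1.08, 1.34 and 0.803 CPM in DMSO and 0.145, 0.436 and 0.407 CPM with both (3.19-fold lower, log2 fold change -1.67, SE 0.43, adjusted p = 0.00575). HSPB8, which works with the cochaperone BAG3 in selective autophagy, was at 51.9, 59.8 and 59.6 CPM in DMSO and 44.4, 45.99 and 40.7 CPM with both (log2 fold change -0.39, SE 0.14, adjusted p = 0.0341). HSPB8 lost its call with the offsets (adjusted p = 0.0618) and in 5 of the 12 fits that left out 1 library (adjusted p up to 0.123, without replicate 3 of the cells given both). HSPB6 and HSPB7 had log2 fold changes of -0.60 and -0.73 with overlapping groups, and were not called. Nor was HSPB11 (0.29), which is counted here by its symbol and works in intraflagellar transport.

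The cytosolic DNAJ genes split by member. DNAJA1, a general HSP40 of HSP70, was at 187, 181 and 182 CPM in DMSO and 274, 311 and 286 CPM with both (1.58-fold, log2 fold change 0.66, SE 0.15, adjusted p = 0.00266). DNAJB4, an HSP40 related to DNAJB1, was at 4.61, 5.19 and 6.37 CPM in DMSO and 10.2, 10.03 and 13.98 CPM with both (2.11-fold, log2 fold change 1.08, SE 0.23, adjusted p = 0.00169). Both calls held in each of the 12 fits that left out 1 library and ended with the offsets (adjusted p = 0.1203 for DNAJA1 and 0.169 for DNAJB4). DNAJC2, which acts at the ribosome beside HSPA14, was at 11.2, 11.4 and 9.96 CPM in DMSO and 27.6, 17.9 and 29.6 CPM with both (2.304-fold, log2 fold change 1.204, SE 0.27, adjusted p = 0.00221), and its call held in all 24 settings. DNAJC24, which serves diphthamide synthesis, rose 1.92-fold (log2 fold change 0.94, SE 0.23, adjusted p = 0.00455), but not with the offsets (adjusted p = 0.268).

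DNAJB1, the HSP40 most closely tied to the heat shock response, was at 241, 239 and 203 CPM in DMSO, 248, 246 and 303 with TH10785 and 201, 219 and 189 with both. It was not called against DMSO (log2 fold change -0.16, SE 0.12, adjusted p = 0.276), and its groups overlapped. DNAJB1 was called lower with both than with TH10785 (-0.39, adjusted p = 0.0139) and than with PNKP1i (-0.30, adjusted p = 0.0427). Those calls held in 11 and 6 of the 12 fits that left out 1 library, and neither held with the offsets (adjusted p = 0.0662 and 0.436). DNAJB2, an HSP40 known from neurons, and DNAJB5 fell against DMSO, with log2 fold changes of -0.43 (adjusted p = 0.0349) and -0.37 (adjusted p = 0.0401). Neither passed with the offsets (adjusted p = 0.661 and 0.538). Their calls were kept in 7 and 5 of the 12 fits that left out 1 library (adjusted p up to 0.167 and 0.191). DNAJA4 and DNAJC9 also rose, by 0.41 (adjusted p = 0.0364) and 0.36 (adjusted p = 0.0283) on the log2 scale, and were called in 7 and 9 of those 12 fits (adjusted p up to 0.134 and 0.1604).

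**Figure D3:**
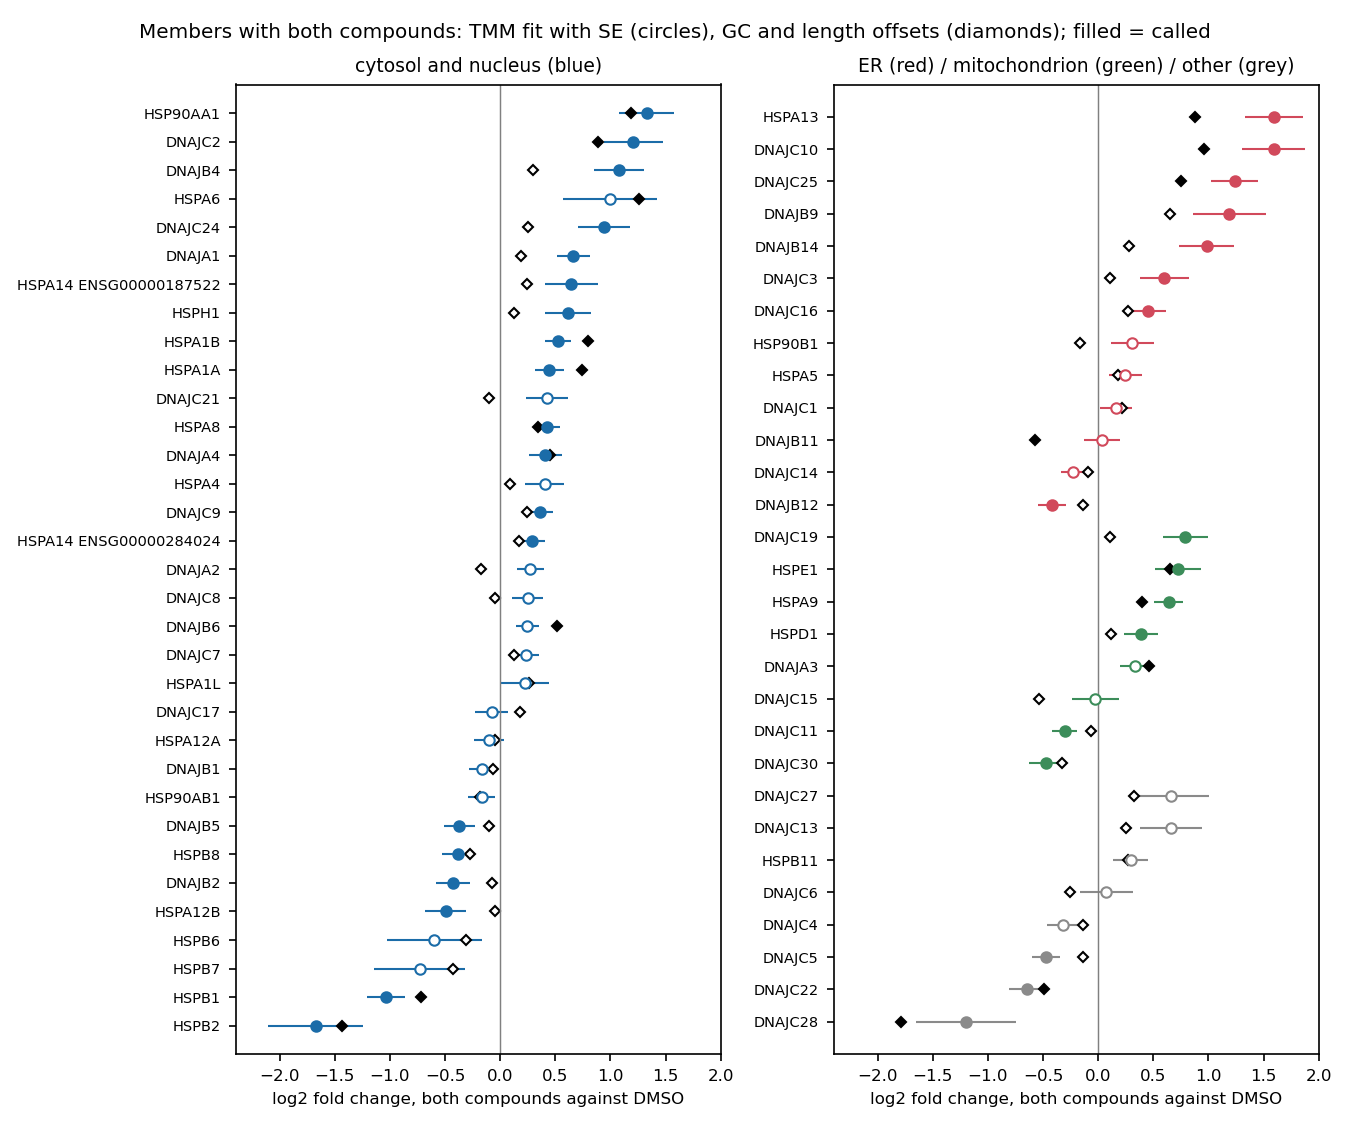
Log2 fold change of each member with both compounds against DMSO (horizontal axis), by compartment; circles with bars give the fit and its SE, diamonds the fit with GC and length offsets, and filled marks were called. HSPA13 and DNAJC10 lie farthest right at 1.59, HSPB2 farthest left at -1.67, and most diamonds lie nearer 0 than their circles.

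In the ER, the 7 genes that rose stood at 1.01 to 4.85 CPM per kb in DMSO, while the abundant folding chaperones HSPA5 and HSP90B1, at 159 and 69.03 CPM per kb, were not called. The value per kb depends on the longest transcript, which has 20129 bases for DNAJC10 (2.02 CPM per kb) and 3986 for HSPA13 (4.85 CPM per kb). HSPA13, a short HSP70 of the ER (chr21:14371115-14383484), was at 19.98, 16.3 and 21.7 CPM in DMSO, 31.1, 26.3 and 10.8 after TH10785, 18.1, 21.9 and 18.2 after PNKP1i and 64.1, 46.8 and 64.1 with both (3.01-fold over DMSO, log2 fold change 1.59, SE 0.26, adjusted p = 0.000231). DNAJC10 (ERdj5, a disulfide reductase that works with BiP; chr2:182716041-182794464) was at 39.6, 40.99 and 41.3 CPM in DMSO, 50.9, 45.7 and 16.03 after TH10785, 35.2, 41.8 and 38.4 after PNKP1i and 148, 86.7 and 132 with both (3.01-fold over DMSO, log2 fold change 1.59, SE 0.28, adjusted p = 0.000424). For both genes the libraries given both compounds were the highest 3 of the 12. With the offsets the log2 fold changes were 0.88 and 0.96, and the calls held in all 24 settings. DNAJC25, an ER membrane protein, was at 3.05, 2.99 and 3.21 CPM in DMSO and 7.45, 7.22 and 7.19 CPM with both (2.36-fold, log2 fold change 1.24, SE 0.21, adjusted p = 0.000347); its call also held in all 24.

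DNAJB9 (ERdj4, which represses the stress sensor IRE1 through BiP) was at 4.01, 4.398 and 5.83 CPM in DMSO and 12.9, 9.06 and 10.6 CPM with both (2.28-fold, log2 fold change 1.19, SE 0.33, adjusted p = 0.00933). DNAJB14, an ER membrane J protein, was at 5.38, 6.96 and 7.17 CPM in DMSO and 13.3, 9.55 and 15.7 CPM with both (1.98-fold, log2 fold change 0.98, SE 0.25, adjusted p = 0.00563). The groups of neither gene overlapped, and the offsets ended both calls (adjusted p = 0.0556 and 0.182). DNAJC3 (p58IPK, an ER cochaperone of BiP) rose 1.52-fold (log2 fold change 0.60, SE 0.22, adjusted p = 0.0394). The DNAJC3 call held in 7 of the 12 fits that left out 1 library (adjusted p up to 0.174, without replicate 1 of the cells given both) and not with the offsets (0.615). DNAJC16 rose by 0.45 on the log2 scale (adjusted p = 0.0308), also called in 7 of those fits (adjusted p up to 0.0967). DNAJB12, the close relative of DNAJB14 in the ER membrane, fell instead, from 105, 132 and 134 CPM to 102, 88.8 and 86.1 CPM (log2 fold change -0.42, SE 0.13, adjusted p = 0.0135). Its call was lost with the offsets (adjusted p = 0.326) and without DMSO replicate 2 or 3 or replicate 3 of the cells given both (adjusted p = 0.0627, 0.0591 and 0.0621). The transcripts of DNAJB14 and DNAJB12 have a GC content of 34.3% and 56.5%.

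HSPA5, the ER member of highest level, was at 598, 618 and 643 CPM in DMSO and 968, 627 and 612 CPM with both. Replicate 1 of the cells given both stood far above its 2 partners, which lay within the DMSO range (log2 fold change 0.25, SE 0.15, adjusted p = 0.195). Without that library the log2 fold change was 0.01. DNAJB11, at 39.6, 42.9 and 44.3 CPM in DMSO and 44.9, 42.3 and 43.02 CPM with both, had a log2 fold change of 0.04 (adjusted p = 0.874). With the offsets it was called lower (log2 fold change -0.57, adjusted p = 0.0004702). Thus HSPA5 and HSP90B1, the members with an ER stress element in their window, were not called against DMSO.

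In the mitochondrion, HSPA9 (mortalin, the HSP70 of the matrix and import motor) rose. It was at 203, 204 and 220.4 CPM in DMSO, 186, 184 and 136 after TH10785, 199, 190.3 and 198 after PNKP1i and 379, 305 and 294 with both (1.56-fold over DMSO, log2 fold change 0.64, SE 0.13, adjusted p = 0.00136). The libraries with both compounds were above the other 9, and the call held in all 24 settings. The chaperonin pair HSPD1 (HSP60) and HSPE1 (HSP10) also rose. HSPD1 was at 354, 394 and 421 CPM in DMSO and 512, 505 and 514 CPM with both (1.31-fold, log2 fold change 0.39, SE 0.15, adjusted p = 0.04905). Its call held in 2 of the 12 fits that left out 1 library (adjusted p up to 0.159, without DMSO replicate 1) and not with the offsets (0.4599). HSPE1 was at 29.2, 22.1 and 22.2 CPM in DMSO and 30.5, 52.9 and 37.6 CPM with both (1.65-fold, log2 fold change 0.72, SE 0.21, adjusted p = 0.0106), and was not called without DMSO replicate 2 or without replicate 2 of the cells given both (adjusted p = 0.0513 and 0.0678). Both genes have many processed copies and overlap on opposite strands of chromosome 2, so their reads may be lost or mixed.

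DNAJC19, an import-motor J protein, was at 18.9, 12.9 and 9.63 CPM in DMSO, 23.96, 22.8 and 18.6 with TH10785 and 20.4, 27.9 and 23.5 with both (log2 fold change 0.79, SE 0.20, adjusted p = 0.00577 for both against DMSO). The rise with both compounds was not called with the offsets (log2 fold change 0.10, adjusted p = 0.679). DNAJC11 and DNAJC30, J proteins of the cristae and inner membrane, fell by 0.31 and 0.47 on the log2 scale (adjusted p = 0.0451 and 0.0222). Their calls held in 2 and 8 of the 12 fits that left out 1 library (adjusted p up to 0.187 and 0.0799), and neither passed with the offsets (0.6301 and 0.0618). Among members placed elsewhere, DNAJC5 (cysteine string protein, of secretory vesicles) was at 166, 191 and 175 CPM in DMSO and 125, 134 and 124 CPM with both (log2 fold change -0.47, SE 0.12, adjusted p = 0.006395; with the offsets -0.14, adjusted p = 0.269). DNAJC22 was at 20.5, 21.1 and 19.5 CPM and 10.6, 15.1 and 13.3 CPM (log2 fold change -0.65, SE 0.16, adjusted p = 0.00524), a call that held in all 24 settings. DNAJC28, at under 1.1 CPM in every library, fell as well (log2 fold change -1.20, adjusted p = 0.0438), held in 3 of those 12 fits (adjusted p up to 0.141).

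**Figure D4:**
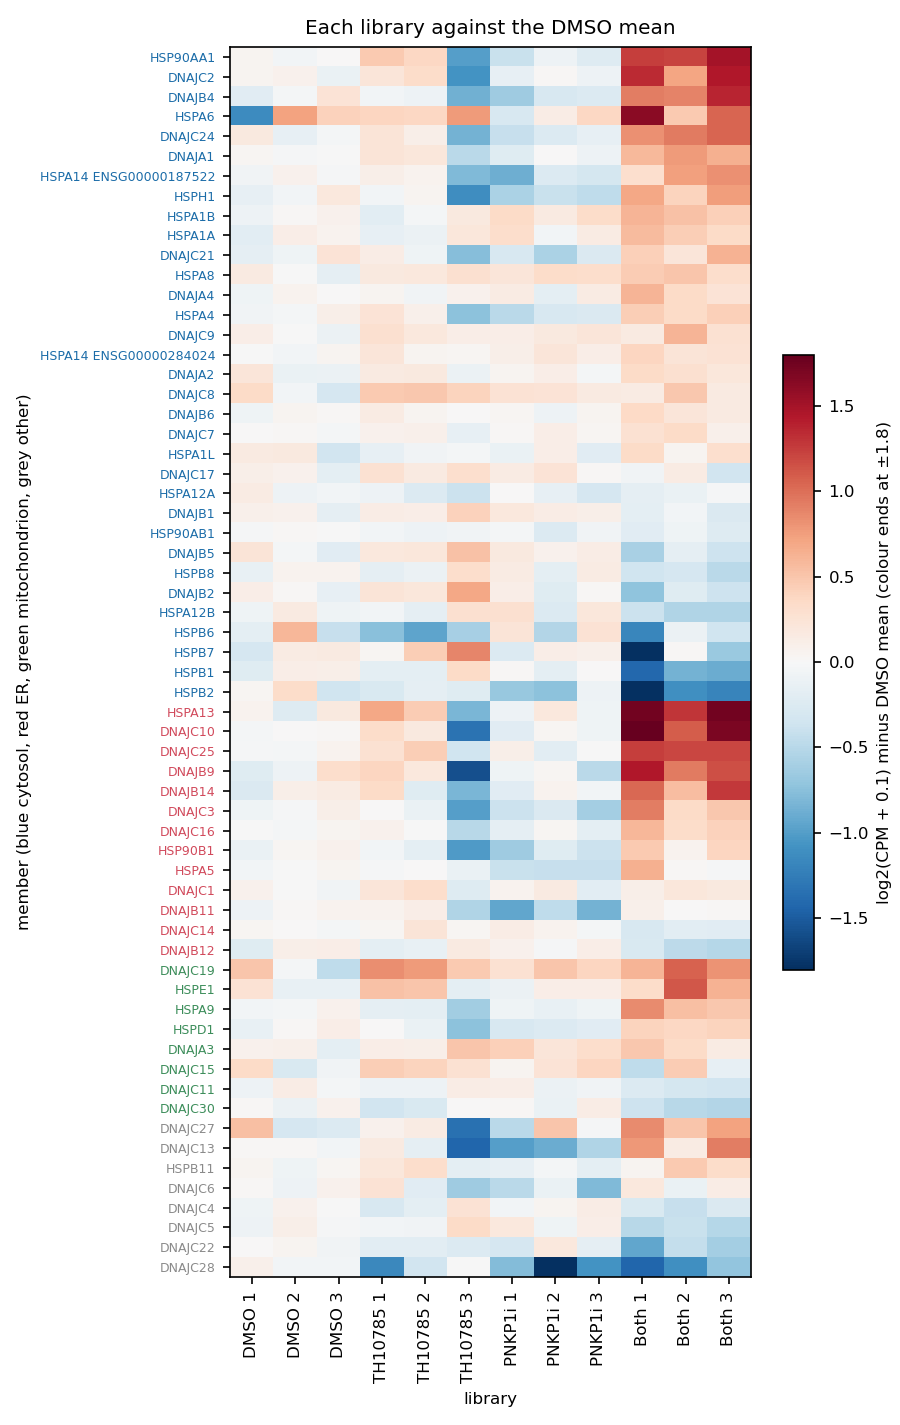
Log2(CPM + 0.1) of each of the 62 members (rows, coloured by compartment) in each library (columns) minus the DMSO mean; red is above and blue below that mean. The 3 libraries with both compounds share most of their colours, and TH10785 replicate 3 is bluer than its partners, with 37 members below both of them. The same count over all genes was not made.

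The combination was also set against each compound. Against TH10785, 24 members were higher and 12 lower (58.1%, against 42.3% of all genes, with 22.7% of all genes higher). Against PNKP1i, 25 were higher and 12 lower (59.7%, against 46.0% of all genes, with 24.4% of all genes higher), among them 10 higher and 2 lower of 13 in the ER. The GC and length offsets left 15 higher and 10 lower against TH10785 (40.3%, against 33.4% of all genes), among them 13 of the 24 rises and 4 of the 12 falls. Against PNKP1i they left 22 higher and 4 lower (41.9%, against 33.3% of all genes), among them 18 of the 25 rises and 2 of the 12 falls; in the ER 5 of 13 were higher and 0 lower (38.5%). The falls also moved with single libraries. Against TH10785 they numbered 5 without replicate 3 of the cells given both, and 8 without replicate 1 of those cells or without TH10785 replicate 3. Against PNKP1i they numbered 5 without PNKP1i replicate 1 or 3 or replicate 3 of the cells given both, and 8 without DMSO replicate 2 or replicate 1 of the cells given both. Without TH10785 replicate 3 the calls numbered 30 against TH10785 (48.4%, against 31.9% of all genes). Against PNKP1i they then numbered 45, with 32 of them higher (72.6% called, against 51.1% of all genes). These comparisons share the libraries given both compounds, so they do not count as separate evidence. HSP90AA1 had a log2 fold change of 1.25 against TH10785 (adjusted p = 0.001098) and 1.57 against PNKP1i (adjusted p = 0.000216). HSPB1 had values of -1.05 (adjusted p = 0.000346) and -0.98 (adjusted p = 0.000442). HSPA5 was higher with both compounds than with PNKP1i by 0.66 on the log2 scale (adjusted p = 0.00219) and was not called against TH10785 (0.29, adjusted p = 0.122). HSP90B1 was called higher with both than with TH10785 (0.67, adjusted p = 0.0108) and than with PNKP1i (0.72, adjusted p = 0.0063). With the offsets neither HSP90B1 call held (adjusted p = 0.212 and 0.298). HSPH1 was higher than with PNKP1i by 1.10 (adjusted p = 0.000713), and DNAJC13, a J protein of endosomes, by 1.46 (adjusted p = 0.000889). For HSPA5, HSPH1 and DNAJC13 the difference from PNKP1i was larger than that from DMSO, and their mean levels with PNKP1i lay below those in DMSO.

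The interaction term asked whether the effect of the 2 compounds together differed from the sum of their single effects on the log2 scale. It was called for 27 of 62 members, 22 above and 5 below that sum (43.5%, against 30.6% of all genes, with 16.5% of all genes above). In the ER 10 of 13 were above the sum and 0 below (76.9%), with a median of 1.08; in the cytosol and nucleus it was 9 above and 4 below of 33 (median 0.18), and in the mitochondrion 2 above and 0 below of 8 (median -0.22). With the GC and length offsets 12 members were above and 6 below (29%, against 18.9% of all genes), and 2 of 13 in the ER (15.4%). HSPA9 (log2 fold change 1.05, SE 0.19, adjusted p = 0.00483), HSP90AA1 (log2 fold change 1.49, SE 0.34, adjusted p = 0.00792) and HSPB1 (log2 fold change -0.99, SE 0.24, adjusted p = 0.00954) kept their interaction calls in every alternative setting in which the term was fitted. HSPD1 did so too, with an interaction of 0.89 (SE 0.21, adjusted p = 0.00872). HSPA1A and HSPA1B were not called without the offsets (0.32 and 0.26) and were with them (0.78 and 0.69, adjusted p = 0.00326 and 0.004196).

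Partner genes of the same pathways were listed by textbook role and counted the same way with both compounds against DMSO. Over all genes 41.0% were called in that comparison, and 34.0% with the offsets. Of 4 heat shock factor genes, HSF4 rose by 1.01 and HSF1, the main activator of the cytosolic response, had -0.54 and fell (adjusted p = 0.00319 and 0.0125). The HSF1 call was lost with the offsets (adjusted p = 0.67) and without DMSO replicate 2 or 3 or replicate 3 of the cells given both (adjusted p = 0.0587, 0.0534 and 0.0522). Of 25 cytosolic cochaperones 8 rose and 6 fell (56%); with the offsets 4 rose and 4 fell (32%). CHORDC1, an HSP90 cochaperone, was at 20.4, 23.3 and 22.3 CPM in DMSO and 44.8, 43.6 and 54.4 CPM with both (log2 fold change 1.11, SE 0.18, adjusted p = 0.0001896). BAG6, which guards membrane proteins before insertion, had -0.68 (adjusted p = 0.00113), and the HSP90-bound phosphatase PPP5C had -0.56 (adjusted p = 0.00174). Of 14 TRiC and prefoldin subunits, which fold actin and tubulin, 4 rose and 1 fell (35.7%), and with the offsets 2 rose and 2 fell (28.6%). In this list PFDN2 rose by 0.83 (adjusted p = 8.79e-05) and PFDN1 fell, with -0.69 (adjusted p = 0.00107).

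Of 15 ER partners and stress sensors 6 rose and 5 fell (73.3%, against 41.0% of all genes), and with the offsets 2 rose and 4 fell (40%, against 34.0%). XBP1, the transcription factor downstream of IRE1, was at 99.3, 111 and 98.00 CPM in DMSO and 254, 185 and 154 CPM with both (log2 fold change 0.94, SE 0.16, adjusted p = 0.000222). CALR, the lectin chaperone calreticulin, was at 1009, 1133 and 1050.0 CPM and 573, 653 and 597 CPM (log2 fold change -0.81, SE 0.13, adjusted p = 0.000145), and MANF, a secreted ER stress protein, at 73.6, 70.2 and 62.8 CPM and 37.2, 43.9 and 36.1 CPM (log2 fold change -0.82, SE 0.11, adjusted p = 6.61e-05). The stress sensor ATF6 rose by 0.49 (adjusted p = 0.00276). With the offsets neither XBP1 nor ATF6 was called (adjusted p = 0.156 and 0.659). ERN1, the gene of IRE1, rose by 0.62 and was still called higher with the offsets (0.78, adjusted p = 0.000918). EIF2AK3, another sensor in this list, rose by 0.61 and was not called with them (0.44, adjusted p = 0.0539). Of 13 mitochondrial partners and proteases 3 rose and 2 fell (38.5%), and with the offsets 2 rose and 1 fell (23.1%), with 1 of the 5 calls kept. They include GRPEL2, a nucleotide exchange factor of HSPA9, with 0.75 (adjusted p = 0.00655; 0.234 with the offsets), and the disaggregase CLPB with -0.72 (adjusted p = 0.000785). Within the single-compound comparisons, 1 of all these 71 partner genes was called, MANF, lower with PNKP1i (-0.71, adjusted p = 0.0128). Whether that call held under the alternatives was not examined.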

How the data were processed

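TRIzol-extracted RNA was turned into NEBNext Ultra libraries and read as 150-bp pairs, per the labels' protocols. Named in the submitters' processing notes are DESeq2 1.30.1, HTSeq 0.6.1 and HISAT2 2.0.5, with GRCh38; the annotation and whether strand was counted are not given in the sources used here, so reads of genes that overlap on opposite strands cannot be told apart. The authors deposited raw counts per gene for 58735 genes, and a normalized signal, which is the deposited count divided by 1 size factor per library. GENCODE 29 (GRCh38) gave gene types, positions, lengths and GC content (available for 17282 of the genes tested).

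The counts were fitted with edgeR 4.0.16 (quasi-likelihood, robust) in R 4.3.3 over all 12 libraries, with filterByExpr (17290 genes), TMM scaling and the group as the only term; the biological coefficient of variation was 15.4%. Adjusted p-values (Benjamini-Hochberg) were taken over all genes within a comparison. Promoter matches were found in the RefSeq table. Counts were simulated for the comparison of both compounds with DMSO over 17290 genes, with 50 genes changed at each fold. The fit recovered 28% of genes changed 1.5-fold, 66% at 2-fold, 84% at 3-fold and 90% at 4-fold, with 3 false among 137 calls. In the real comparison 41.0% of genes were called, so these rates do not measure its power. Same-numbered libraries did not deviate together (18 pairs, r from -0.25 to 0.13), so numbers were not used to pair samples. No replicates held identical counts. Members and lists were chosen with earlier results of these data known. Named throughout were 15 members of known role (such as HSPA5, HSP90AA1 and HSPB1), the called members with up to the 8 largest rises and 8 largest falls, those called in the interaction, and up to 4 called genes of each partner list with the smallest p; others are named where a count or a comparison needed them, after their values were seen. Alternatives were other scalings, DESeq2 1.42.0, limma 3.58.1 (voom, and trend on log2 of the deposited signal plus 1), filters, a fold threshold of 1.2, a replicate block, GC and length offsets (splines with 5 degrees of freedom), the libraries of 1 comparison alone, and each library left out. Protein sequences were not used here.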

Additional observations from a re-analysis of the deposited data

Results flagged for a closer look

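The effect of one compound on each of these members differed with the other compound present, by the interaction term of edgeR's quasi-likelihood fit. The values are log2 departures from the sum of the single effects. Above the sum in the ER were DNAJC10 (1.78), DNAJB9 (1.51), HSPA13 (1.36), DNAJC3 (1.33), DNAJB14 (1.23), DNAJC25 (1.10), HSP90B1 (1.08), DNAJB11 (0.87), HSPA5 (0.70) and DNAJC16 (0.68). Above it in the cytosol and nucleus were DNAJB4 (1.79), HSP90AA1 (1.49), HSPH1 (1.40), DNAJC2 (1.33), DNAJC24 (1.33), HSPA14 under ENSG00000187522 (1.26), DNAJC21 (1.01), HSPA4 (0.83) and DNAJA1 (0.74), in the mitochondrion HSPA9 (1.05) and HSPD1 (0.89), and elsewhere DNAJC13 (1.79). Below the sum were DNAJB1 (-0.53), DNAJC5 (-0.64), DNAJB5 (-0.79), DNAJB2 (-0.80) and HSPB1 (-0.99). Of these 27, 11 were called in every alternative setting and 20 in every fit that left out 1 library. With the GC and length offsets 13 of them kept their call, 10 above and 3 below the sum, and 14 lost it. The offsets gave adjusted p of 0.943 for DNAJB11, 0.604 for DNAJC21, 0.525 for DNAJB14, 0.348 for DNAJC16, 0.192 for HSPA4, 0.167 for DNAJB1, 0.165 for DNAJA1, 0.137 for DNAJC25, 0.105 for DNAJC24, 0.0917 for HSPA13, 0.083 for DNAJC3, 0.0779 for DNAJB9, 0.0743 for HSPA5 and 0.0565 for DNAJB2. Calls were lost for DNAJB9 without DMSO replicate 3, PNKP1i replicate 3 or both-compound replicate 1 (adjusted p = 0.07803, 0.0709 and 0.0642). Calls were also lost for DNAJB14 without DMSO replicate 3, PNKP1i replicate 1 or both-compound replicate 3 (adjusted p = 0.0518, 0.0506 and 0.0587). Calls were also lost for HSPA4 without DMSO replicate 3 or PNKP1i replicate 1 (adjusted p = 0.0553 and 0.0613). Calls were also lost for DNAJA1 without PNKP1i replicate 1 (adjusted p = 0.0545). Calls were also lost for HSPA5 without DMSO replicate 3, PNKP1i replicate 1 or PNKP1i replicate 3 (adjusted p = 0.0502, 0.0531 and 0.0504). Calls were also lost for DNAJC16 without DMSO replicate 1, DMSO replicate 2, DMSO replicate 3, PNKP1i replicate 1, PNKP1i replicate 3, TH10785 replicate 3, both-compound replicate 1 or both-compound replicate 3 (adjusted p = 0.0564, 0.05498, 0.0722, 0.0817, 0.0835, 0.0503, 0.0757 and 0.0627). Calls were also lost for DNAJB1 without DMSO replicate 3, PNKP1i replicate 1, PNKP1i replicate 3 or both-compound replicate 3 (adjusted p = 0.0705, 0.0606, 0.0501 and 0.0627).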

How the results depend on the processing

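Over 24 alternative settings, the 164 named fold changes gave 3900 values. Of these, 3560 kept their direction and side of the threshold, 269 were no longer past it and 22 newly passed it. Sign changed for 0 values with a call in the main or the alternative fit, and for the other 49 with no call in either. The 164 do not include DNAJB11 for both against DMSO. That value was not called in the main fit, and with the offsets its sign changed and it was called lower. Of the 62 members, 36 were called with both compounds against DMSO (24 rises, 12 falls). The calls numbered 17 (14 and 3) when a fold change over 1.2 was tested (27.4%, against 28.6% of all genes). They numbered 19 (14 and 5) with the GC and length offsets (30.6%, against 34.0%). With the replicate block and the offsets they also numbered 19 (14 and 5), or 30.6%, against 31.2% of all genes. The replicate block alone gave 26 (19 rises and 7 falls), or 41.9%, against 37.3% of all genes. With no filter on low counts 33 were called, 6 of them falls (53.2%, against 19.9% of the 34799 genes then tested). With the block and the offsets, 24 members were called for both against PNKP1i (38.7%, against 29.6% of all genes). In the interaction 16 were (25.8%, against 15.6%). Of the 36 calls, 10 held in every setting and 17 in every fit that left out 1 library.

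Leaving out each library in turn gave 20 to 47 calls for both against DMSO, with 15 to 34 rises and 4 to 13 falls. The highest number, 47, was without TH10785 replicate 3 (75.8%, against 47.6% of all genes). The lowest, 20, was without DMSO replicate 2 (32.3%, against 28.9%). The same gave 24 to 36 calls against TH10785 (38.7% to 58.1%, against 31.9% to 42.7% of all genes). Against PNKP1i it gave 28 to 45 (45.2% to 72.6%, against 34.7% to 51.1%). In the interaction it gave 21 to 30 (33.9% to 48.4%, against 19.6% to 34.5%). For TH10785 against DMSO leaving out a library gave 0 to 2 (up to 3.23%, against 0.247% to 1.01% of all genes). For PNKP1i against DMSO it gave 0 to 3 (up to 4.84%, against 0.0393% to 1.69%). Without the filter on low counts, 1 member was called with TH10785 (1.61%, against 1.47% of all genes) and 2 with PNKP1i (3.23%, against 0.543%). With PNKP1i, DESeq2, the offsets, and the block with the offsets each called 1 (1.61%). The shares of all genes in those fits were 0.671%, 0.526% and 0.318%. The fit of the 6 libraries compared called 7 with PNKP1i (11.3%, against 7.07% of all genes). The cause of these differences was not tested. At this depth, members averaging below 2 CPM (HSPA6, HSPB2, HSPB6, HSPB7, DNAJC28) rest on few counts. In simulated counts with 50 genes changed at each fold, 28% of those changed 1.5-fold were recovered, which does not measure the power of the real comparisons.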
